A study of Saccharomyces cerevisiae with 24 samples.

Results

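The change in the transcriptome between early and middle chronic calcium stress was measured in budding yeast that lacked the transcription factor Crz1 but kept calcineurin. The comparison used 6 of the 24 libraries of the series, the 3 labelled crz1 at 48 h of CaCl2 and the 3 labelled crz1 at 12 h, chosen by strain and time alone. All 6 came from haploid MATa cells of the BY4741 background with the genotype his3delta1 ura3delta0 leu2delta0 lys2delta0 crz1delta::LEU2 and a HYG-TEFp-GFP(Y66F) insertion on chromosome VI, so the crz1 deletion and the insertion were shared by both times. Cultures stood in 200 mM CaCl2 for 48 h or 12 h, were diluted at 12 h intervals to keep them in logarithmic growth, and were fed ammonium chloride as nitrogen source in synthetic medium. PolyA RNA was sequenced, and the time courses were run in triplicate according to the series description. Whether the strain was carried as 1 clone is not stated in the labels.

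Calcineurin is the calcium- and calmodulin-activated protein phosphatase of eukaryotic cells, and Cnb1 is its regulatory subunit. In yeast it dephosphorylates Crz1, which then enters the nucleus and switches on genes for ion transport and cell wall maintenance. Other calcineurin substrates do not need Crz1, and the series was designed to follow calcineurin-dependent changes that occur without it. The crz1 cnb1 strain, which lacks both, was sampled at the same times and is used below only for contrast.

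Marker genes were set against the labelled genotype and mating type. For the deleted CRZ1 the 6 libraries held between 1 and 3 counts, and for CNB1 between 1581 and 3043. URA3 and LYS2, both deleted in this background, had 0 counts. HIS3, given as his3delta1 in the same genotype, had 951 to 1746 counts. MET17, not listed as deleted in that genotype, had 25523 to 41687. LEU2, given as leu2delta0 but also the marker in place of CRZ1, had 11537 to 22645. The alpha-factor genes MF(ALPHA)1 and MF(ALPHA)2 had at most 9 and 4 counts, whereas the alpha-factor receptor gene STE2 of MATa cells had 7378 to 11610. STE3 and SAG1, the other alpha-type genes examined, had 66 to 173 and 386 to 727 counts. Total counts were 21779565 to 22016465 per library. Levels are given as CPM, counts scaled to library size by the TMM method, which sets each gene against the whole library and is not corrected for gene length, so a level in bulk RNA cannot separate less RNA per cell from fewer cells.

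The 48 h group held the most deviant library of the series. Replicate 1 deviated from the mean of replicates 2 and 3 by a median of 0.397 on the log2 scale over 5041 genes of at least 10 CPM, and 359 genes (7.12%) lay 2-fold or more away, 99 above and 260 below. On log2(TPM + 1) the split turned, with 876 above and 50 below. Replicate 2 deviated by 0.195 with 0.377% of genes 2-fold off, and replicate 3 by 0.267 with 2.16%. At 12 h, replicate 1 deviated by 0.216, replicate 2 by 0.0790 and replicate 3 by 0.218. Over the 21 libraries of the other 7 groups, the median deviation ran from 0.0704 to 0.218 and the share of genes 2-fold off from 0.0198% to 3.53%. The deviation of the 48 h replicate 1 therefore lay above every library outside its group on both measures.

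**Figure D1:**
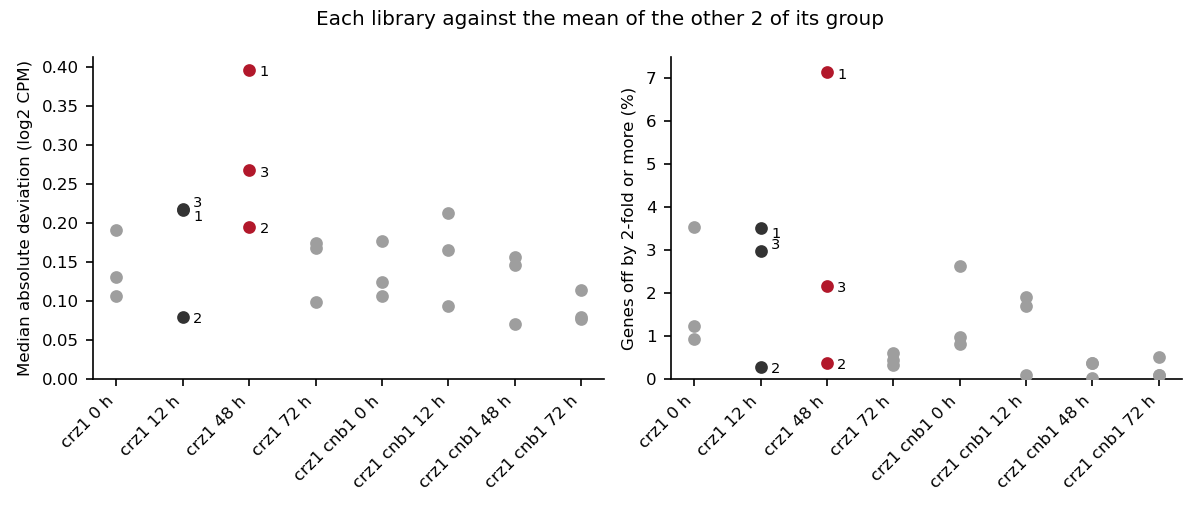
Deviation of each library from the mean of the other 2 libraries of its group, as the median absolute log2 CPM difference (left) and the percentage of genes 2-fold or more away (right), over 5041 genes. Red points are the 48 h libraries and black points the 12 h libraries of the crz1 strain, with replicate numbers beside them, and grey points are the other groups; the 48 h replicate 1 stands highest in both panels, at 0.397 and 7.12%.

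Measured against each library of the series, the 48 h replicate 1 was nearest to a library of another time. Its median absolute log2 difference was 0.107 to replicate 2 at 72 h of the same strain and 0.131 to replicate 1 at 12 h, against 0.372 and 0.432 to replicates 2 and 3 of its own group. Replicates 2 and 3 at 48 h were each other's nearest library, with a difference of 0.164. As a description across genes, the Pearson correlation of log2 CPM was 0.945 and 0.926 between replicate 1 and the other two, and 0.988 between replicates 2 and 3.

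The 8 named genes furthest below and the 8 furthest above in replicate 1, set against replicates 2 and 3, included genes of phosphate and iron supply. They were ranked on that same difference, so their values are a description and carry no test. Low in replicate 1 were 4 genes of the phosphate starvation response. SPL2, which encodes a regulator of low-affinity phosphate uptake, had 2.63 CPM in replicate 1, 32.8 CPM in replicate 2 and 135 CPM in replicate 3 at 48 h, against 1.37, 19.1 and 36.5 CPM in replicates 1, 2 and 3 at 12 h. PHM6 (1.16, 16.8 and 70.4 CPM at 48 h), the sodium-phosphate cotransporter gene PHO89 and the acid phosphatase gene PHO11 showed the same order of libraries. The small stress-protein gene HSP12 had 96.8, 481 and 1104 CPM at 48 h, and the wall mannoprotein gene CWP2 had 1092, 5857 and 11632 CPM. The hexose transporter gene HXT7 and COA2, a cytochrome oxidase assembly gene, completed the set of 8.

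High in replicate 1 were 4 genes of the iron starvation response. LSO1, a gene induced by iron limitation, had 169 CPM in replicate 1, 24.5 CPM in replicate 2 and 6.21 CPM in replicate 3 at 48 h. FIT1, a cell wall mannoprotein that retains siderophore iron, had 2500, 663 and 263 CPM. The heme oxygenase gene HMX1 had 152, 36.9 and 34.8 CPM and the ferric reductase gene FRE2 had 514, 189 and 126 CPM. At 12 h, FIT1 had 1898, 1698 and 1442 CPM, so the 48 h replicate 1 lay above all 12 h libraries and replicates 2 and 3 below them. HES1, TIR1, PBI1 and CAF120 were the other 4 of the 8. Over the 32 iron regulon genes, the median log2 difference from the 12 h mean was 0.47 in replicate 1, -0.23 in replicate 2 and -0.09 in replicate 3.

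A second difference ran across the whole genome with gene length. In 48 h replicates 2 and 3, short genes were high and long genes low relative to the 12 h mean, while replicate 1 leaned the other way. The Pearson correlation across 5705 genes between the log2 difference from the 12 h mean and log2 coding length was 0.14 in replicate 1, -0.55 in replicate 2 and -0.55 in replicate 3. In the shortest eighth of genes (78 to 468 bases) the median log2 change from 12 to 48 h was 0.46, and in the longest eighth (2619 to 14733 bases) it was -0.17. The crz1 cnb1 strain showed the same lean over these times, with a correlation of -0.34 and medians of 0.29 and -0.08. Many of the calls below are set against a second fit in which each library's trend with coding length was removed, a step added after the data were seen. It used the 5705 genes with an annotated coding length and left a correlation of -0.01. In the shortest eighth the median difference from the 12 h mean was -0.09, 0.66 and 0.66 in 48 h replicates 1, 2 and 3. In the longest eighth it was 0.15, -0.31 and -0.41. The deviation of replicate 1 from its group described above therefore includes this difference with length. How large that deviation was with the trend removed was not measured. The cause of the trend was not tested.

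**Figure D2:**
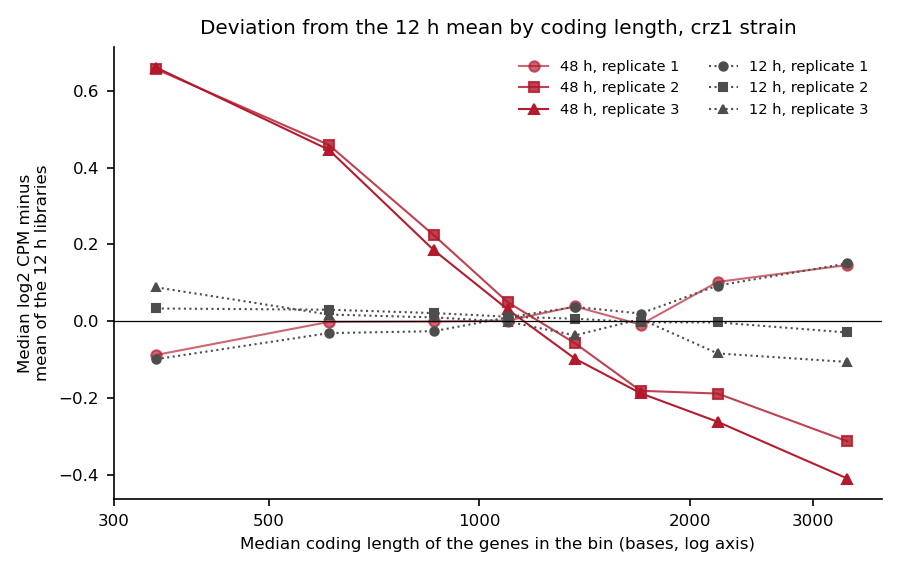
Median log2 CPM of each crz1 library minus the mean of the 12 h libraries, for 8 bins of genes ordered by coding length (log axis). Red lines are the 48 h libraries and grey dotted lines the 12 h libraries; replicates 2 and 3 at 48 h fall steadily with length, whereas replicate 1 at 48 h follows replicate 1 at 12 h.

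Of 6089 genes tested, 887 (14.6%) differed between 48 h and 12 h at an adjusted p below 0.05, 596 higher (9.79%) and 291 lower (4.78%) at 48 h, by edgeR's quasi-likelihood test with Benjamini-Hochberg adjustment on all 24 libraries. The libraries of the 2 times did not overlap in 17.6% of the genes tested, 10.2% higher and 7.36% lower at 48 h. Changes of at least 2-fold were found for 50 of the higher and 45 of the lower genes. With RLE size factors in place of TMM, 492 were higher and 338 lower. With limma on log2(TPM + 1), which changes both the unit and the test, 128 genes were higher and 269 lower and the median of all genes was -0.12, against 0.04 in edgeR, and DESeq2 with its own filter and scaling gave 629 higher and 472 lower. The called genes differed in size. Those higher at 48 h had a median coding length of 534 bases and those lower 1752 bases, against 1227 over all genes. With the length trend removed, 205 of 5705 genes (3.59%) were called, 107 higher (1.88%) and 98 lower (1.72%), and 170 of them were called in the same direction without that step.

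The calls leaned on the 48 h replicates 2 and 3 and on a spread borrowed from all groups. The 48 h replicate 1 lay within the range of the 12 h libraries for 259 of the 887 called genes (29.2%), replicate 2 for 10 (1.13%) and replicate 3 for 24 (2.71%). Among the 596 genes called higher, replicate 1 was the lowest 48 h library in 565 (94.8%), against 44.9% of all genes. Without replicate 1 at 48 h, 2325 genes were called, whereas without replicate 2 there were 12 and without replicate 3 there were 17. Without replicate 2 or 3 at 12 h, the counts were 241 and 76. Fitted on the 6 libraries alone, edgeR called 0 genes, with 871 at an unadjusted p below 0.05.

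In 11 genes the call stood in the main fit, in the fit without the length trend and in each of the 6 fits that left out 1 library. They were LEU1, ILV3, GLN1, ERG7 and FAT3 among those lower at 48 h, and CWP1, NQM1, COX17, RSM19, ATG31 and the uncharacterised open reading frame YOL038C-A among those higher. ATG31, an autophagy gene, had 10.6, 11.4 and 11.03 CPM at 48 h and 6.07, 5.64 and 5.57 CPM at 12 h, so the groups stood well apart (log2 change 0.93 ± 0.13 SE, adjusted p = 0.000647). It was named after its values were seen, as was YOL038C-A, at 4.37, 7.58 and 8.30 CPM at 48 h and 2.97, 2.50 and 2.15 CPM at 12 h.

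LEU1 and ILV3, genes of branched-chain amino acid synthesis, had the smallest p-values of the amino acid list and fell. Leucine, isoleucine and valine share a mitochondrial pathway in which Ilv2 makes the acetohydroxy acids, Ilv3 dehydrates their products and Bat1 adds the amino group, and leucine leaves it through Leu4 or Leu9 and Leu1. In yeast the transcription factor Leu3 is activated by the leucine precursor isopropylmalate, and Gcn4 binds TGACTC elements under amino acid limitation. The 300 bases before the start codon are shown for BAT1 and ILV3, which with LEU1 are the genes named from the amino acid list, and for GLN1, to show where TGACTC stands, with matches on either strand in capitals, read from the R64 reference (RefSeq) 5′ to 3′ on the coding strand.

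BAT1: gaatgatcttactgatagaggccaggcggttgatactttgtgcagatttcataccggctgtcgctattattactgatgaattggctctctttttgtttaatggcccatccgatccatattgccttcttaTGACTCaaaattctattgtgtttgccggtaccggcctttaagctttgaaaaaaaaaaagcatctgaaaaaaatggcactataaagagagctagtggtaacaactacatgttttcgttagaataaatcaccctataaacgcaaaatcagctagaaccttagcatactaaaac

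ILV3: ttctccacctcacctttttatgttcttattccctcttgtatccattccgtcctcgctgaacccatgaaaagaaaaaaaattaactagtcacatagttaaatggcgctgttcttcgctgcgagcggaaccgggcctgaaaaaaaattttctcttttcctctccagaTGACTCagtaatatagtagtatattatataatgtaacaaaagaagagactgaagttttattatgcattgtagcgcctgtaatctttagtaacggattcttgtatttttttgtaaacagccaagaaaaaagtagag

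GLN1: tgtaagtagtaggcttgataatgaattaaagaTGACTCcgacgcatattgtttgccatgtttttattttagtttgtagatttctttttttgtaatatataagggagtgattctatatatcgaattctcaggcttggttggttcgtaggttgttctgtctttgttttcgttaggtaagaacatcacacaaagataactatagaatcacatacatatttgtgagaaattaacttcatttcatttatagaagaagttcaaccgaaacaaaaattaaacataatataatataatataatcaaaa

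These windows lie at chrVIII:517232-517531 (plus strand, BAT1), chrX:466209-466508 (minus strand, ILV3) and chrXVI:641908-642207 (plus strand, GLN1) of R64. TGACTC begins 171 bases before the start codon of BAT1, 135 bases before that of ILV3 and 268 bases before that of GLN1, and the window of LEU1 holds no match.

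LEU1, which encodes isopropylmalate isomerase, had 134, 104 and 114 CPM in the 48 h libraries, against 286, 338 and 375 CPM in the 12 h libraries. All 48 h libraries, replicate 1 included, lay below all 12 h libraries. The log2 change was -1.51 ± 0.17 (SE; adjusted p = 5.21e-05), and -1.35 with the length trend removed (adjusted p = 4.48e-05). ILV3, the dihydroxyacid dehydratase gene, had 257, 207 and 210 CPM at 48 h and 416, 495 and 564 CPM at 12 h. Its groups did not overlap either, with a log2 change of -1.13 ± 0.15 (adjusted p = 0.000374). Without any CaCl2, LEU1 had 236, 192 and 225 CPM and ILV3 296, 247 and 325 CPM, so both stood above the untreated libraries at 12 h, and LEU1 stood below them at 48 h.

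The branched-chain aminotransferase gene BAT1 had 804, 606 and 682 CPM at 48 h and 1060, 1131 and 1127 CPM at 12 h (log2 change -0.67 ± 0.13, adjusted p = 0.00852). ILV2, LEU4 and LEU9, named after their values were seen, changed by -0.68, -0.61 and -0.65 with adjusted p of 0.0195, 0.0174 and 0.0130, and none of the 3 overlapped between times. ILV5 and ILV6 of the same pathway were not called, at -0.65 and -0.23 (adjusted p = 0.138 and 0.210). LEU4 and LEU9 are close homologues whose reads the counting could have divided unevenly. The LEU2 gene, here the marker that replaces CRZ1, had 682, 560 and 711 CPM at 48 h and 961, 1084 and 1190 CPM at 12 h (-0.73 ± 0.15, adjusted p = 0.00922). LEU4 and LEU9 lost the call when the length trend was removed (adjusted p = 0.0688 and 0.0605), and LEU2, BAT1 and ILV2 kept it (0.0141, 0.0135 and 0.0324).

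**Figure D3:**
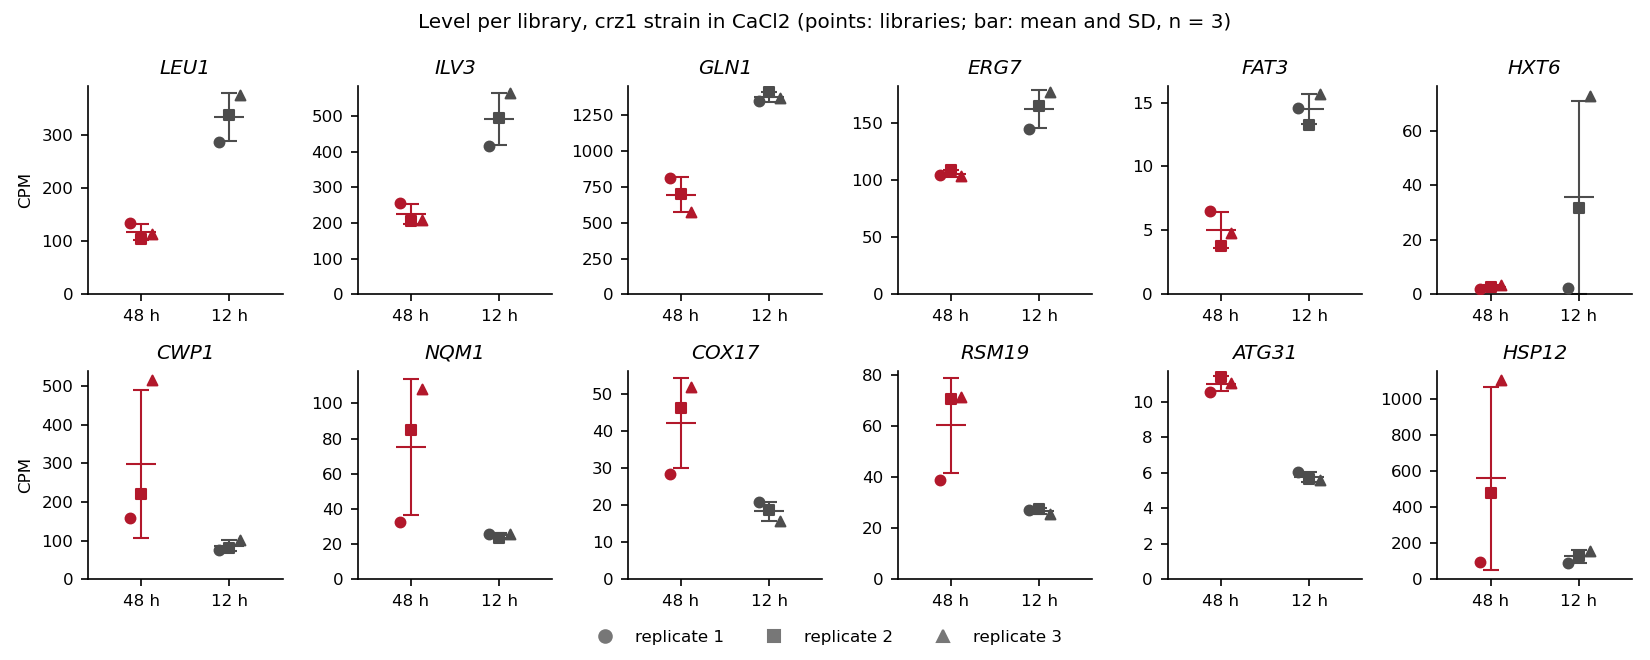
CPM of 12 genes in the 48 h libraries (red, left) and the 12 h libraries (grey, right), each point 1 library, with the mean and SD of 3 libraries and y axes that start at 0. The first 5 genes in the upper row lie lower at 48 h in every library, HXT6 is low at 48 h but spread from 2.46 to 72.7 CPM at 12 h, and HSP12 is spread from 96.8 to 1104 CPM at 48 h.

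Of 38 genes of amino acid synthesis tested, 17 were lower at 48 h and 1, LYS1, was higher, against 4.78% lower and 9.79% higher over all genes. Their median log2 change was -0.39, beside 0.04 for all genes. The 17 were LEU1, LEU4, LEU9, ILV1, ILV2, ILV3, BAT1, BAT2, LYS4, TRP5, ARO1, ARO4, THR1, THR4, ASN1, ASN2 and GDH1. With the length trend removed, 7 were lower (LEU1, ILV2, ILV3, BAT1, ARO4, THR1 and GDH1) and the median was -0.29. The median difference from the 12 h mean was -0.20 in replicate 1, -0.52 in replicate 2 and -0.47 in replicate 3 at 48 h. Leaving out single libraries gave 22 lower genes without 48 h replicate 1, 2 each without 48 h replicate 2 or 3, and 6 and 3 without 12 h replicate 2 or 3.

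Promoters with TGACTC were counted over the 300 bases before the start codon, on both strands, as a description. The letters stood in 45 of 289 promoters of genes called lower (15.6%) and in 31 of 567 of genes called higher (5.47%), against 466 of 6007 promoters of all genes (7.76%). Among genes called lower with the length trend removed the share was 17 of 98 (17.3%). Of the 17 amino acid genes called lower, 10 held it, and of all 38 genes of that list, called or not, 25 did. In genes called lower, GATAAG, the element of the GATA factors of nitrogen regulation, stood in 18.0% of promoters, or 13.3% of those called lower with the length trend removed, against 14.7% of all, and the stress element AGGGG in 20.1% against 22.2%.

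GLN1, GDH1 and DUR1,2 were lower among genes of nitrogen use. GLN1, glutamine synthetase, had 813, 703 and 572 CPM at 48 h and 1349, 1412 and 1372 CPM at 12 h, without overlap (-0.98 ± 0.16, adjusted p = 0.00390). GDH1, the NADP-dependent glutamate dehydrogenase that fixes ammonium, had 358, 209 and 200 CPM at 48 h and 435, 460 and 450 CPM at 12 h (-0.81 ± 0.18, adjusted p = 0.0122). DUR1,2, urea amidolyase, had 29.8, 16.5 and 17.9 CPM at 48 h and 32.4, 61.4 and 97.5 CPM at 12 h (-1.57 ± 0.27, adjusted p = 0.00489), and its 12 h replicate 1 lay close to its 48 h replicate 1. In the list of genes under nitrogen catabolite repression, 9 of 30 were lower and 0 higher, against 4.78% lower over all genes, with a median of -0.18. The 9 became 1 without 48 h replicate 2 or 3 and 2 without 12 h replicate 3. DUR1,2, DUR3, GLN1 and GDH1 were lower with the length trend removed, which left a median of -0.13. The glutamate and aspartate permease gene DIP5 and the GATA factor gene GAT2 were among the largest falls, at -1.72 and -1.56, with 12 h replicate 1 again the lowest of its group. Both lost the call with the length trend removed (adjusted p = 0.0677 and 0.0825), at changes of -1.58 and -1.42.

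Of 27 genes of ergosterol synthesis, 13 were lower at 48 h and 0 higher, against 4.78% lower over all genes, with a median of -0.42. These 13 became 18 when 48 h replicate 1 was left out, 1 and 2 when it was 48 h replicate 2 or 3, and 5 and 2 when it was 12 h replicate 2 or 3. They included the genes of both HMG-CoA reductases, HMG1 and HMG2, the squalene epoxidase gene ERG1 and the azole target gene ERG11. ERG7, lanosterol synthase, had 104, 109 and 103 CPM at 48 h and 145, 165 and 177 CPM at 12 h (-0.62 ± 0.10, adjusted p = 0.00390). ERG11 had 474, 533 and 718 CPM at 48 h and 728, 1167 and 1611 CPM at 12 h (-1.02 ± 0.23, adjusted p = 0.0123), and MVD1, mevalonate diphosphate decarboxylase, changed by -0.56 ± 0.11. With the length trend removed, MVD1, ERG7, ERG11 and ERG25 were lower and the list median was -0.34. In the 48 h replicate 1 alone the list median was -0.26. Summed over the list, the level was 11473, 9905 and 11076 CPM at 48 h and 12415, 14853 and 17815 CPM at 12 h.

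ACC1, FAS1 and FAS2, genes of fatty acid synthesis picked after their values were seen, were each lower. ACC1, acetyl-CoA carboxylase, had 806, 441 and 455 CPM at 48 h and 1126, 1030 and 1046 CPM at 12 h (-0.91 ± 0.17, adjusted p = 0.00643). The fatty acid synthase genes FAS1 and FAS2 changed by -0.75 ± 0.15 and -0.80 ± 0.18. In all 3 genes, replicate 1 was the 48 h library nearest to 12 h. These are among the longest yeast genes, and the changes of ACC1 and FAS2 with the length trend removed were -0.70 and -0.61 (adjusted p = 0.000992 and 0.0123), whereas FAS1 lost its call (adjusted p = 0.0712). FAT3, which encodes a protein of fatty acid uptake, had 6.55, 3.79 and 4.77 CPM at 48 h and 14.6, 13.3 and 15.7 CPM at 12 h (-1.52 ± 0.22, adjusted p = 0.00129).

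Of 27 genes of the TCA and glyoxylate cycles, 11 were lower and 0 higher, against 4.78% lower over all genes, with a median of -0.25. With the length trend removed, 4 were lower (SDH1, MDH2, PYC1 and MAE1) and the median was -0.16. The 11 became 0 and 1 without 48 h replicate 2 or 3, and 4 and 2 without 12 h replicate 2 or 3. MDH2, cytosolic malate dehydrogenase, had 303, 269 and 320 CPM at 48 h and 362, 532 and 670 CPM at 12 h (-0.81 ± 0.16, adjusted p = 0.00852). PYC1, pyruvate carboxylase, had 153, 77.7 and 88.9 CPM at 48 h and 177, 206 and 240 CPM at 12 h (-0.96 ± 0.22, adjusted p = 0.0123). CIT2, peroxisomal citrate synthase, had 226, 189 and 132 CPM at 48 h and 347, 691 and 1085 CPM at 12 h (-1.96 ± 0.55, adjusted p = 0.0275). The acetyl-CoA synthetase gene ACS2 fell by 0.65 on the log2 scale, and ACH1, an acetyl-CoA hydrolase gene named after its values were seen, fell by 1.32.

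Most of the largest falls rested on a high 12 h group that itself was spread. The 12 genes were HXT6, ISF1, MGA1, ATO2, CIT2, YHK8, SDP1, DIP5, SDH1, DUR1,2, GAT2 and FAT3. In 11 of them replicate 1 was the lowest 12 h library, against 66.3% of genes called lower and 40.7% of all genes. The high-affinity hexose transporter gene HXT6 had 1.83, 2.82 and 3.59 CPM at 48 h and 2.46, 31.5 and 72.7 CPM at 12 h (-3.70 ± 1.02, adjusted p = 0.0270). ISF1 had 1.07, 1.94 and 2.89 CPM at 48 h and 2.65, 24.9 and 42.8 CPM at 12 h. HXT6 is nearly identical to HXT7, so reads of the pair cannot be assigned with certainty. HXT7 had 0.713, 4.23 and 9.59 CPM at 48 h and 1.28, 69.7 and 139 CPM at 12 h, and was not called. In the hexose transporter list, HXT6 was the 1 gene called of 21 tested. The groups overlapped in 6 of the 12 genes, HXT6 and ISF1 among them. The heat shock factor-like gene MGA1 (11.2, 18.0 and 15.1 CPM at 48 h; 20.5, 72.3 and 136 CPM at 12 h) did not overlap. In the fit without the length trend, 3 of the 12 were still called (SDH1, DUR1,2 and FAT3) and 9 were not, at adjusted p between 0.0534 and 0.0885. Their changes stayed about as large, such as -3.55 for HXT6 and -2.25 for MGA1.

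Of 54 ribosome biogenesis genes, 8 were lower and 0 higher, against 4.78% lower over all genes, with a median of -0.16. Leaving out 48 h replicate 1 gave 18 lower genes, leaving out 48 h replicate 2 or 3 gave 0, and leaving out 12 h replicate 3 gave 3. NOP1, the rRNA methyltransferase fibrillarin, had 782, 556 and 635 CPM at 48 h and 946, 1076 and 1269 CPM at 12 h (-0.74 ± 0.15, adjusted p = 0.00890), and CBF5, the pseudouridine synthase gene, changed by -0.56 ± 0.12. With the length trend removed, 5 were lower. Their median was 0.01 in the 48 h replicate 1, against -0.12 and -0.36 in replicates 2 and 3. Among 29 chaperone and heat shock genes, most cytosolic and some mitochondrial, SSB1, SSB2 and SSE1, which act on newly made proteins or exchange nucleotide on Hsp70, were lower, and the mitochondrial chaperonin gene HSP10 and HCH1 were higher. The shares over all genes were 4.78% lower and 9.79% higher. SSB1 and SSE1 alone of these 5 chaperone genes were called with the length trend removed. The S-adenosylmethionine synthetase gene SAM1 had a log2 change of -0.58 and the coproporphyrinogen oxidase gene HEM13 one of -1.21, both past the threshold. SSB1 and SSB2 are near-identical, as are SAM1 and SAM2, so their reads could be shared.

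Among the genes higher at 48 h, CWP1 and NQM1 had the largest log2 changes of the 11 genes called with and without the length trend and without each single library. CWP1, a mannoprotein of the cell wall, had 159, 220 and 517 CPM at 48 h and 76.2, 80.7 and 103 CPM at 12 h. Each 48 h library exceeded each 12 h library, although the 48 h values themselves spanned more than the gap (1.78 ± 0.31, adjusted p = 0.00489). NQM1, a transaldolase homologue induced with stress, had 32.6, 84.6 and 108 CPM at 48 h and 25.9, 23.5 and 25.8 CPM at 12 h (1.58 ± 0.27, adjusted p = 0.00438). The glycerol phosphatase gene GPP2 had 774, 1229 and 1439 CPM at 48 h and 631, 713 and 675 CPM at 12 h (0.77 ± 0.16, adjusted p = 0.00922).

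Other large rises came from replicates 2 and 3. HSP12 had 96.8, 481 and 1104 CPM at 48 h and 91.2, 132 and 160 CPM at 12 h (2.13 ± 0.57, adjusted p = 0.0235), and its replicate 1 lay within the 12 h range. HOR7, a small stress-induced protein gene, had 35.4, 148 and 206 CPM at 48 h and 29.7, 32.6 and 39.7 CPM at 12 h (1.93 ± 0.45, adjusted p = 0.0136). Replicate 1 was the lowest 48 h library in all 12 of the largest rises, and the groups overlapped in 6 of them. The short membrane-protein gene PMP3 rose by 1.15 and the fluoride exporter gene FEX2 by 1.08, both with overlap, and FEX2 has a near-identical copy, FEX1. Of 30 general stress genes, HSP12, RTC3 and TFS1 were higher and 0 lower, near the 9.79% higher of all genes. Their list median was -0.10, opposite in sign to the calls. None of the 30 was called with the length trend removed, where HSP12 had an adjusted p of 0.0720.

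Genes of the mitochondrial ribosome were higher together. This ribosome translates the few proteins encoded in mitochondrial DNA, and its protein subunits are made in the cytosol. Of 66 subunit genes, 43 were higher and 0 lower, against 9.79% higher over all genes, with a median of 0.43. RSM19, a small-subunit protein, had 38.8, 70.8 and 71.4 CPM at 48 h and 27.1, 27.6 and 25.5 CPM at 12 h (1.17 ± 0.20, adjusted p = 0.00438). MRPL44 had 27.5, 38.9 and 46.6 CPM at 48 h and 22.2, 22.5 and 16.2 CPM at 12 h (0.89 ± 0.16, adjusted p = 0.00650), and MRP10 changed by 0.72 ± 0.14. Summed over the list, the level was 3071, 3789 and 3544 CPM at 48 h and 2663, 2664 and 2403 CPM at 12 h, without overlap.

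The genes of that list are short, with a median coding length of 706.5 bases, and the length trend moved with the result. In the bin of all genes of 471 to 723 bases, 26.7% were called higher and the median was 0.32. With the trend removed, 4 subunit genes were higher (MRP8, MRPS28, MRPS35 and RSM19), 0 lower, and the median was 0.25 beside 0.05 for all genes. The 48 h replicate 1, whose lean with length was the opposite, had a list median of 0.23 above the 12 h mean, and replicates 2 and 3 had 0.61 and 0.44. In TPM, 11 were higher and the median was 0.26, beside -0.12 for all genes. Without 48 h replicate 1, 45 were called higher, without 48 h replicate 2 or 3 it was 1, and without 12 h replicate 2 or 3 it was 19 and 4.

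**Figure D4:**
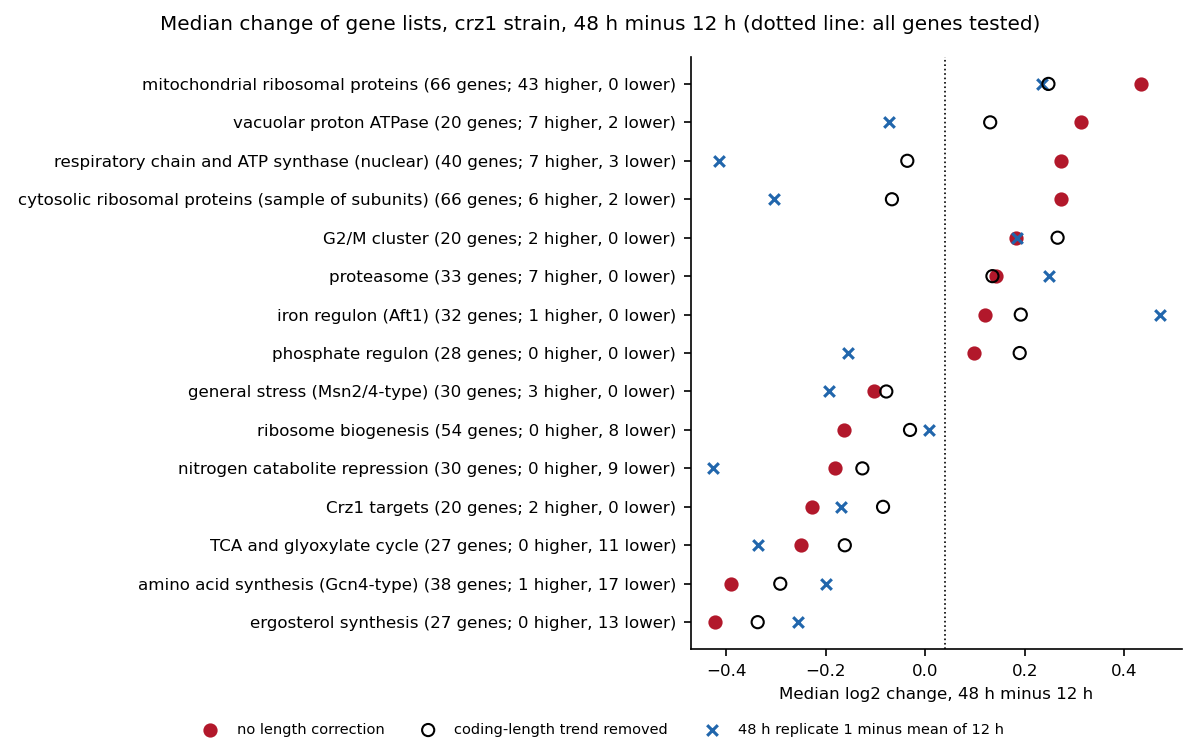
Median log2 change, 48 h minus 12 h, of 15 gene lists, with the number of genes tested and called beside each name. Filled points are the fit without length correction, open circles the fit with the coding-length trend removed and crosses the 48 h replicate 1 minus the 12 h mean; the mitochondrial ribosome lies highest and ergosterol synthesis lowest of the 15 in the first fit, while the respiratory chain and cytosolic ribosome lie below the line for all genes in the other 2.

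Several short genes of mitochondria and copper handling were among the largest rises. COX17, the copper chaperone for cytochrome oxidase, had 28.6, 46.2 and 51.8 CPM at 48 h and 20.8, 18.6 and 15.7 CPM at 12 h (1.20 ± 0.21, adjusted p = 0.00489). ATX1, which carries copper to the Golgi, had 98.7, 217 and 229 CPM at 48 h and 82.5, 72.8 and 101 CPM at 12 h (1.09 ± 0.21, adjusted p = 0.00852) and overlapped through replicate 1. CMC1, a further twin-cysteine protein of the intermembrane space named after its values were seen, changed by 1.05 ± 0.22. SDH6, an assembly factor of succinate dehydrogenase, and INH1, the inhibitor of the ATP synthase, changed by 1.55 ± 0.31 and 1.45 ± 0.30. These genes have coding lengths of 210 to 336 bases, and all 5 were called with the length trend removed, at changes of 0.61 to 1.07.

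The respiratory chain as a list did not move one way. Of 40 nuclear genes, 7 were higher, COX7 and INH1 among them, and 3 were lower, SDH1, SDH2 and COR1, with a median of 0.27. Over all genes, 9.79% were higher and 4.78% lower. With the length trend removed, 2 were higher, 1 lower, and the median was -0.04. The list median was -0.41 in the 48 h replicate 1, against 0.52 and 0.64 in replicates 2 and 3. SDH1, the flavoprotein subunit of succinate dehydrogenase, had 5.71, 6.46 and 8.52 CPM at 48 h and 7.26, 23.5 and 33.7 CPM at 12 h (-1.64 ± 0.38, adjusted p = 0.0128). Of 66 cytosolic ribosomal protein genes, 6 were higher and 2 lower, near the 9.79% higher and 4.78% lower of all genes, with a median of 0.27. Once the trend was removed, 0 were higher, 3 lower and the median was -0.07, and without 48 h replicate 1 it was 50 higher and 3 lower with the trend in place. The vacuolar proton ATPase had 7 of 20 higher and 2 lower, against the same shares of all genes, and 0 in either direction once the length trend was removed.

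The mitotic cyclin genes CLB1 and CLB2 were higher. CLB1 had 85.1, 107 and 101 CPM at 48 h and 71.5, 65.2 and 62.6 CPM at 12 h (0.56 ± 0.13, adjusted p = 0.0122). CLB2 had 82.5, 121 and 119 CPM at 48 h and 73.0, 64.1 and 58.4 CPM at 12 h (0.72 ± 0.17, adjusted p = 0.0136). Neither overlapped, and both are longer than the median gene, so the length trend ran against them; with it removed, ALK1 was also called and the changes were 0.66 and 0.83. The other 18 genes of the G2/M list were not called, which left the share higher near the 9.79% of all genes, with a list median of 0.18. The proteasome list had 7 of 33 higher and 0 lower, against 9.79% higher and 4.78% lower over all genes. Its median was 0.14, or -0.02 in TPM, where the median of all genes was -0.12. With the trend removed, 1 gene of that list, RPN8, was higher. The mitochondrial peroxiredoxin gene PRX1 had 106, 138 and 137 CPM at 48 h and 85.6, 80.6 and 65.1 CPM at 12 h (0.72 ± 0.14, adjusted p = 0.00749). It was 1 of 5 genes higher among 33 of the Yap1 oxidative stress type, of which 2 were lower, against the same shares of all genes. Once the length trend was removed, PRX1 alone was higher and TKL1 alone lower.

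Lists tied to calcium signalling and to metal and phosphate supply had few calls. Of 20 Crz1 targets, HSP12 and the potassium transport gene KCH1 were higher and 0 lower, near the 9.79% higher of all genes, while the median was -0.23. After removal of the length trend, KCH1 was higher and ORM2 lower, and without 48 h replicate 1 or 12 h replicate 1 there were 4 lower with the trend in place. KCH1 had 61.7, 75.1 and 68.0 CPM at 48 h and 54.3, 43.7 and 38.9 CPM at 12 h (0.58 ± 0.18, adjusted p = 0.0360). Of 18 genes of calcium transport and calcineurin, calmodulin (CMD1) was higher, a call lost with the length trend removed. The libraries of the 2 times did not overlap for 8 of the 18, against 17.6% of all genes. Without 48 h replicate 1, 3 of the list were higher and 5 lower, where 1354 higher and 971 lower of 6128 genes were called. Without 48 h replicate 2 or 3, 0 of the list were called. Of 32 iron regulon genes, ATX1 was the 1 called, and of 28 phosphate genes 0 were called. The medians of these last lists were 0.12 and 0.10, or -0.06 and -0.12 in TPM, where the median of all genes was -0.12. Both lists were spread among the 48 h libraries as described above, at -0.15, 0.04 and 0.56 for the phosphate list in replicates 1, 2 and 3. In the fit without 48 h replicate 1, the iron list had 2 higher and 4 lower, and the phosphate list 4 higher and 1 lower. Without 48 h replicate 2 or 3 both lists had 0 calls. The zinc, multidrug efflux and daughter cell separation lists also had 0 calls. Among 7 a-specific mating genes, AGA2 was called higher, with overlap, and not with the length trend removed; the alpha-specific list had 0 of 4 called and summed to 23.4 to 34.7 CPM at 48 h and 34.9 to 45.6 CPM at 12 h.

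Whether these changes needed calcineurin was asked by testing the difference between the change in the crz1 strain and that in the crz1 cnb1 strain, which share no library. By edgeR's quasi-likelihood test, 0 of 6089 genes passed after adjustment (0.0%), with 353 (5.80%) at an unadjusted p below 0.05. DESeq2 called 3. Within the crz1 cnb1 strain 604 genes (9.92%) were called between 48 h and 12 h, 290 higher (4.76%) and 314 lower (5.16%). Without replicate 1 at 48 h, 132 genes passed the test of the difference. A p that misses the threshold does not show that the strains changed alike.

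The lists gave the following values in the strain without calcineurin, with its coding-length trend left in place. Over all genes in that strain, 4.76% were higher and 5.16% lower. The mitochondrial ribosome had 31 genes higher and 0 lower there with a median of 0.41, amino acid synthesis 12 lower with a median of -0.30, and ergosterol synthesis 6 lower with a median of -0.19, beside -0.42 in crz1. Other medians differed in sign, at -0.18 in crz1 and 0.07 in crz1 cnb1 for nitrogen catabolite repression, -0.40 and 0.15 for gluconeogenesis, acetate and fatty acid use, and 0.10 and -0.43 for the phosphate list. The difference between the strains was not tested by list. ILV3 changed by -0.84 ± 0.14 in crz1 cnb1, BAT1 by -0.76 ± 0.13 and ERG7 by -0.56 ± 0.10. The difference of the 2 strains' changes was -0.29 for ILV3, 0.09 for BAT1 and -0.06 for ERG7, none of which passed (adjusted p = 0.893, 0.975 and 0.984). LEU1 fell in both strains, by 1.51 on the log2 scale in crz1 and by 0.64 in crz1 cnb1, and the difference of -0.87 did not pass after adjustment (unadjusted p = 0.00108, adjusted p = 0.589).

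The 6 genes with the smallest p for the difference were PHO3, CWP1, PRM4, PET10, FAT3 and MNN1, all with an adjusted p of at least 0.156. CWP1 changed by 1.78 in crz1 and by -0.38 in crz1 cnb1, where it had 312, 448 and 395 CPM at 48 h and 354, 528 and 621 CPM at 12 h. The low values among these 4 groups were the 12 h libraries of crz1. The difference was 2.16 (unadjusted p = 5.82e-05). PHO3, a constitutive acid phosphatase gene, had 154, 214 and 222 CPM at 48 h and 194, 212 and 221 CPM at 12 h in crz1, and 79.9, 90.7 and 86.4 CPM at 48 h and 147, 212 and 303 CPM at 12 h in crz1 cnb1. PRM4, a pheromone-regulated membrane protein gene, changed by -0.72 in crz1 and by 0.63 in crz1 cnb1. FAT3 changed by -1.52 and -0.26, PET10 by 0.48 and -0.37, and MNN1 by 0.59 and -0.47 in crz1 and crz1 cnb1.

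The 72 h libraries of the crz1 strain, which enter none of the contrasts above, were set beside these levels. LEU1 had 150, 145 and 146 CPM at 72 h and FAT3 7.07, 3.69 and 4.76 CPM, both below their 12 h libraries. NQM1 had 72.8, 73.4 and 107 CPM and CWP1 613, 406 and 518 CPM at 72 h, above their 12 h libraries. COX17 had 23.5, 22.7 and 18.5 CPM and RSM19 35.0, 24.9 and 26.4 CPM at 72 h, within or near the 12 h range, and BAT1 had 933, 845 and 891 CPM, between its 48 h and 12 h libraries. HSP12 had 453, 428 and 756 CPM at 72 h, so that the 48 h replicate 1, at 96.8 CPM, lay below all 72 h libraries as well.

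**Figure D5:**
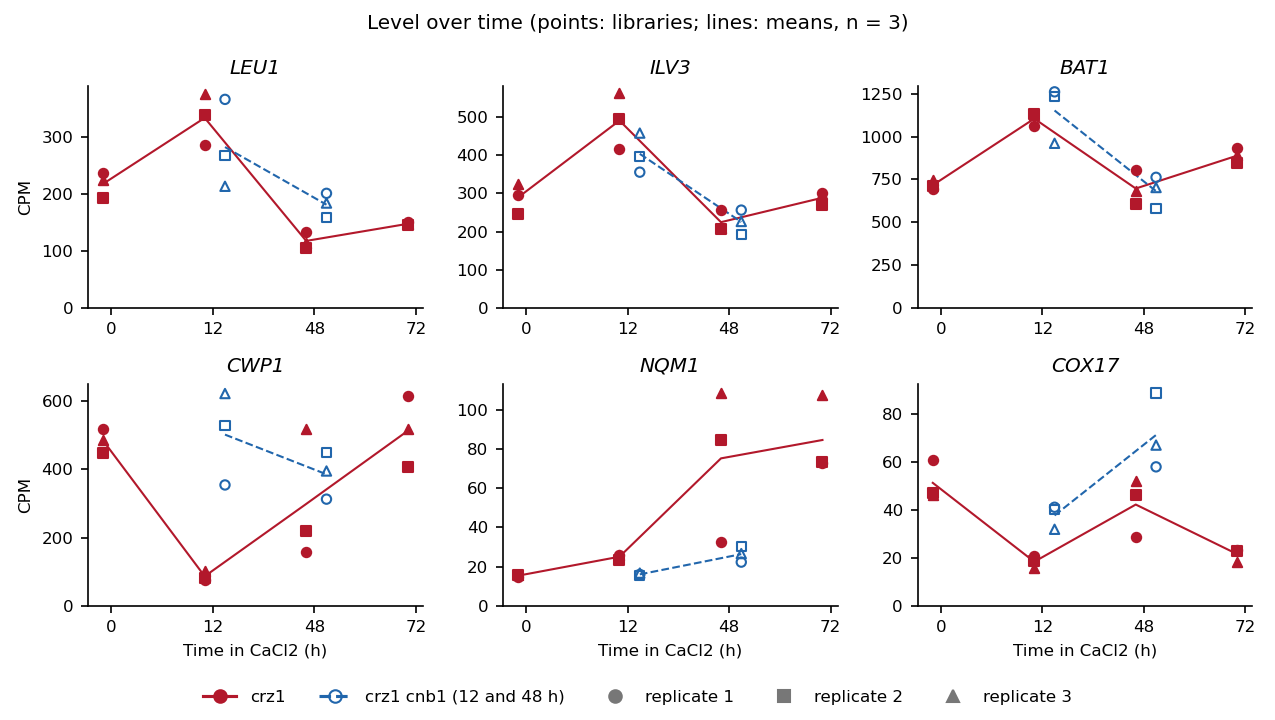
CPM of 6 genes over time in CaCl2 in the crz1 strain (red, 0 to 72 h) and in crz1 cnb1 at 12 and 48 h (blue, open), each point 1 library and lines joining means of 3. LEU1, ILV3 and BAT1 fall between 12 and 48 h in both strains, CWP1 rises in crz1 from the lowest level of its time course, and COX17 is back near its 12 h level at 72 h.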

How the data were processed

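Raw read counts per gene (7126 genes, 24 libraries) were made by the authors with featureCounts on build R64, according to the submitters' processing notes. A second deposited table gives TPM for 6737 genes. DESeq2 is also named in those notes. Their versions and the strandedness of counting were not found in the labels, so reads of overlapping genes cannot be told apart. Groups came from the labels (strain and time, 3 libraries each). Counts were fitted with edgeR 4.0.16 (TMM, filterByExpr, robust quasi-likelihood, 1 coefficient per group), limma 3.58.1 and DESeq2 1.42.0 in R 4.3.3. A gene was called at a Benjamini-Hochberg adjusted p below 0.05 over all 6089 genes tested. The SE is that of the log2 change. Log2 CPM used a prior count of 1. The coding-length trend was removed per library by a natural spline of 4 degrees of freedom on log2 coding length, used as an offset. The edgeR fit with TMM, with and without removal of the length trend, was tested on simulated counts for the contrast of 48 h with 12 h. The other tools and settings and the strain difference were not. Nothing says that libraries came from separate cultures beyond "triplicate time course experiments", so p-values measure the spread between these libraries. The comparison, lists and motifs were chosen with earlier results of these data known. Named genes are the 12 largest called rises and falls of at least 10 CPM in 1 group, up to 3 of smallest p per list, 6 of the strain difference and 8 at each end for 48 h replicate 1; others are said to be chosen later. Alternatives were other scaling, filters, tools, units, blocks and left-out libraries.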

Additional observations from a re-analysis of the deposited data

How the results depend on the processing

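The count of genes called between 48 h and 12 h depended on the libraries, the treatment of gene length and the tool. From 887 genes (596 higher, 291 lower) it stayed within 1.5 times with RLE scaling (830), without a filter for low counts (778), with DESeq2 (1101) and the replicate block (1151), though the lower genes alone rose to 472 under DESeq2 and to 461 under the block. It was 0, with 0 higher and 0 lower, for the 6 libraries alone, 3112 (1734 and 1378) under limma voom with sample quality weights, 397 (128 and 269) on log2(TPM + 1) and 395 (127 and 268) on log2(TPM + 0.1). Leaving out 1 library gave 12 to 2325 genes, 6 to 1354 higher and 6 to 971 lower, with the lowest counts without 48 h replicate 2 and the highest without 48 h replicate 1. Of alternatives chosen after seeing the data, removing the coding-length trend gave 205 (107 and 98), the replicate block with the coding-length trend removed 464 (237 and 227), and 48 h replicate 1 alone 0 (0 and 0), with 755 genes at an unadjusted p below 0.05. Leaving out 48 h replicate 1 and removing the trend gave 502 higher and 407 lower genes. The cause of these differences was not tested.

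The test of the difference between the strains' changes gave 0 genes, also with the replicate block, 3 under DESeq2, 1370 under voom with quality weights, and 0 to 132 when 1 library was left out, the highest without 48 h replicate 1 of the crz1 strain. The deviation of 48 h replicate 1 from its group was larger on log2(TPM + 1), at 0.593 with 18.4% of genes 2-fold off. That of replicate 3 was larger too, at 0.422. Replicate 1 stayed the most deviant 48 h library on that scale, with RLE scaling and at minimum levels of 1 and 100 CPM. Its deviation with the coding-length trend removed was not measured. Of 70 named genes, all called in the main fit, 3 changed sign when 48 h replicate 1 stood alone: HSP12 (-0.39), PMP3 (-0.081) and AGA2 (-0.059). No other alternative reversed one. Without the coding-length trend 49 of the 70 were still called, and without 48 h replicate 2 or 3 it was 11 and 15.

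Replicate numbers went together between the times for replicates 1 and 3 but not for replicate 2. The correlation of deviations between 48 h and 12 h libraries of the same number was 0.438, 0.0592 and 0.521 for replicates 1, 2 and 3. Between unlike numbers it ran from -0.481 to 0.140, and replicate 2 at 48 h correlated best with replicate 3 at 12 h. The main fit took no account of a pairing, whereas the replicate block did and called 1151 genes. The depth of about equal libraries leaves genes under 10 CPM with the least precise changes.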

Other observations

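Genes of glucose breakdown, oxygen-dependent lipid steps and the cell wall gave further values in the same comparison, where 9.79% of all genes were higher and 4.78% lower. Of 25 genes of glycolysis and fermentation, HXK2, PFK1 and PDC1 were lower at 48 h and 0 higher, with a median log2 change of -0.32, and HXK2 alone was called with the coding-length trend removed. HXK2, the main hexokinase gene, had 2274, 1565 and 1781 CPM at 48 h and 2850, 2693 and 2683 CPM at 12 h (-0.55 ± 0.13 SE, adjusted p = 0.0130). PDC1, pyruvate decarboxylase, had 9538, 8295 and 9494 CPM at 48 h and 10823, 12697 and 13965 CPM at 12 h (-0.46 ± 0.15, adjusted p = 0.0406). In the crz1 cnb1 strain 13 of these 25 genes were lower, against 5.16% lower over all genes there, with a median of -0.52. The fatty acid desaturase gene OLE1 had 1664, 1801 and 1764 CPM at 48 h and 2152, 2801 and 3711 CPM at 12 h (-0.73 ± 0.23, adjusted p = 0.0394). OLE1 was 1 of 4 genes lower among 25 tied to hypoxia and heme, of which 1, COX5B, was higher, and neither was called with the coding-length trend removed.

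Cell wall lists moved in few members, beside shares over all genes of 9.79% higher and 4.78% lower. Of 31 mannoprotein genes, CWP1 was higher and TIR4, DAN4 and FLO1 were lower. FLO1, a flocculin gene with repeats shared by its relatives, had 5.66, 3.11 and 2.73 CPM at 48 h and 6.89, 7.69 and 9.51 CPM at 12 h (-1.06 ± 0.25, adjusted p = 0.0136). Of 18 glycerol and osmolyte genes, GPP2, NQM1 and HOR7 were higher and GPD2, GUT1 and DAK2 lower. DAK2, a dihydroxyacetone kinase gene, had 0.223, 0.194 and 0.321 CPM at 48 h and 0.365, 2.40 and 3.20 CPM at 12 h (-2.98 ± 0.63, adjusted p = 0.00960). Each DAK2 value lay far under 10 CPM, where changes are least precise, and its 12 h replicate 1 was close to the 48 h libraries. Of 31 genes of sulfur assimilation and methionine, MET12, SAM1, SAM2 and CYS4 were lower and MET31 higher. In the 19 trehalose and glycogen genes, GLG2 was called higher while the list median was -0.56. With the coding-length trend removed, SAM1, SAM2, CWP1, FLO1, GPP2, NQM1, HOR7 and DAK2 kept the call among the genes of these lists, and GLG2, MET12, MET31, CYS4, TIR4, DAN4, GPD2 and GUT1 lost it.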
